A study of Mus musculus with 12 samples.

Results

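In all, 10 genes of blood clotting and clot breakdown were followed across 12 arrays: the clotting factor genes F2, F3, F5, F7, F9 and F10, the 3 fibrinogen chain genes Fga, Fgb and Fgg, and Plg. Members were the probes, other than control spots, whose RefSeq accession maps to 1 of these 10 symbols, which gave 13 of the 41174 probes and 10 of the 16535 named genes on the array. Liver and esophagus RNA was taken from 6 male mice on a mixed 129Sv/C57BL6 background, aged about 8 months, with 1 Agilent one-colour array per organ and mouse. The 3 TG mice were Col1a1tetO-Nanog/+;Rosa26rtTA/+, so that a Nanog transgene at the Col1a1 locus answers to doxycycline through the rtTA activator at Rosa26, and the 3 CTR mice were Col1a1+/+;Rosa26rtTA/+, with the activator and no transgene. All 6 mice, controls included, drank doxycycline at 0.2 mg/ml in 7.5% sucrose for 48 h. No group went without doxycycline or without rtTA, and the Rosa26 locus drives the activator in most cell types, so the transgene is not aimed at one cell type. Nanog, a regulator of pluripotency in the early embryo, is named in the series title for its effect on the mitotic program of stratified epithelium, the tissue that lines the esophagus.

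Clotting starts when tissue factor, the membrane protein made by F3 and held by cells outside the bloodstream, meets the plasma protease factor VII. A chain of plasma proteases then turns prothrombin into thrombin, thrombin turns fibrinogen into fibrin, and plasmin, cut from plasminogen, dissolves the fibrin. Hepatocytes make nearly all of the plasma factors and release them into the blood, they raise fibrinogen in inflammation as part of the acute phase response, and epithelia that face injury carry tissue factor.

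Fga, Fgb and Fgg lie side by side on chromosome 3, with 0 annotated genes between Fgg and Fga and 1 between Fga and Fgb, and F7 and F10 are direct neighbours on chromosome 8 (gene order from RefSeq on GRCm38.p6). The 250 bases before the RefSeq start of the 3 fibrinogen genes, which share high signal in liver, and of F3, the 1 member with the opposite pattern between the organs, are shown here because the results turn on these 4 genes. They run 5′ to 3′ on the gene's strand, from GRCm38.p6, with matches to the searched motifs in capitals. The windows are chr3:83025903-83026152 on the plus strand for Fga, chr3:83049864-83050113 on the minus strand for Fgb, chr3:83007474-83007723 on the plus strand for Fgg and chr3:121723287-121723536 on the plus strand for F3.
Fga: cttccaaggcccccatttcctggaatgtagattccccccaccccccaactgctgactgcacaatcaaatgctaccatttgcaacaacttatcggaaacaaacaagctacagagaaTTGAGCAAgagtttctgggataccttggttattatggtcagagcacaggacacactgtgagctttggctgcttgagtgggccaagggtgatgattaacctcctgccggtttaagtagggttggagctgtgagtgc
Fgb: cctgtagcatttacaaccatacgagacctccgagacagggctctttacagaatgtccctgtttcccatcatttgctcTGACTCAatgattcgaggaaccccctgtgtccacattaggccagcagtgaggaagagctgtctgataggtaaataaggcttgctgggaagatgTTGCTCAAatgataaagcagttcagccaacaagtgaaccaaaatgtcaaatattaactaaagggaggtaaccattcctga
Fgg: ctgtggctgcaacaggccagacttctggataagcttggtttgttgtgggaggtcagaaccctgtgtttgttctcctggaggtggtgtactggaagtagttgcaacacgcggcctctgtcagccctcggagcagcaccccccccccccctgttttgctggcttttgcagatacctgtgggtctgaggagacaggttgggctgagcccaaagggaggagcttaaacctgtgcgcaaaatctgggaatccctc
F3: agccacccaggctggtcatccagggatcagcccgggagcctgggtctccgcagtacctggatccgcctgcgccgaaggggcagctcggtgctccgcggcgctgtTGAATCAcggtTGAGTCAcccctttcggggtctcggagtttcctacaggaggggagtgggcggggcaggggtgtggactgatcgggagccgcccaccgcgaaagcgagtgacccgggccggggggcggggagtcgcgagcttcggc
The motifs were searched on both strands: the HNF4 site CAAAGTCCA, the C/EBP site TTGCNNAA, the AP-1 site TGANTCA and the TATA box TATAAA. HNF4 and C/EBP factors act in hepatocytes, and AP-1 is made of Fos and Jun proteins. C/EBP is not particular to liver here, since the C/EBP gene Cebpa was also marked well above background on every esophagus array. No matches overlapped in the windows shown. Fga held a C/EBP match at bases -135 to -128 before its start. Fgb held a C/EBP match at -80 to -73 and an AP-1 match at -173 to -167. F3 held 2 AP-1 matches, at -146 to -140 and -135 to -129, and Fgg held none of the letters searched in this window. Windows were listed for 9 of the 10 genes, Plg being the exception. Among those 9, C/EBP was in 3, with F9 as the other (9.57% of 32841 windows of this length), and AP-1 in 3, with F2 as the other (6.75%). HNF4 (0.384% of windows) and the TATA box (12.4%) were in 0 of the 9. A match is a run of letters and was not tested as a binding site.

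Every value below is a log2 processed signal from which the 75th percentile of the same array was subtracted, so that 0 is a probe at that percentile, and where a gene has several probes the brightest stands for it. A probe counts as above background where the scanner software marked it well above. Between 56.4% and 81.8% of all probes passed that mark per array, and precision is limited by how few arrays there are. All 16 hepatocyte markers on the array were above background on every liver array, with a summed linear signal of 4687 to 6159 times the 75th percentile. In the same way all 16 stratified epithelium markers were above background on every esophagus array, at 1387 to 1781. The one Nanog probe was not above background on any of the 12 arrays (-5.62 to -8.38), and whether it covers the transgene's RNA was not analysed here. Livers TG2 and CTR1 stood apart in acute phase genes, as given below. Per2, a clock gene, was at -1.73 in liver TG2 and -1.60 in liver CTR1 against 0.66 to 1.27 in the other 4 livers. In the esophagus it was at -2.92 in TG1 and -2.46 in TG2 against -0.73 to 0.26 in the other 4. The same number in both organs is the same animal, so the animals of TG1 and CTR1 differed in Per2 between their organs; the origin of this was not tested, and values without esophagi TG1 and CTR1 are given where a result rests on them.

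**Figure D1:**
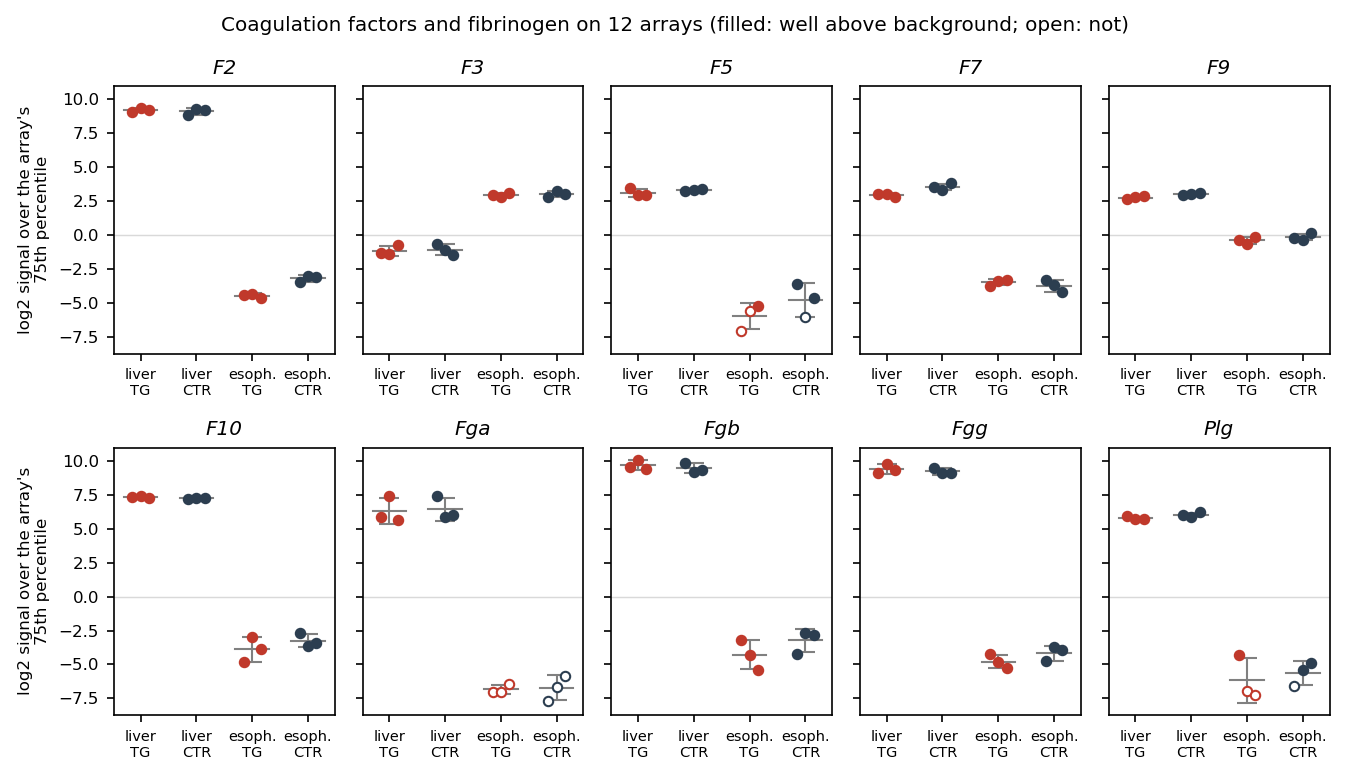
Log2 signal relative to the array's 75th percentile (vertical axis) of the 10 genes in liver and esophagus of TG (red) and CTR (dark) mice. Each point is 1 array, open where not well above background, and grey bars are the group mean and SD of 3 arrays; 9 genes are higher in liver and F3 is higher in esophagus.

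Of the 10 genes, 9 were higher in liver and 1, F3, was higher in esophagus, both in control and in TG mice. With limma and Benjamini-Hochberg adjustment over all features tested, 9 members were called higher in liver among controls, where 34.6% of 23365 features were, and 1 was called lower, where 27.8% were. Among TG mice the counts were again 9 higher, where 38.9% of 23912 features were, and 1 lower, where 24.3% were. F5, Fga and Plg entered both contrasts through liver alone, since not all of their esophagus arrays were above background. Their calls rest in part on esophagus signals below that mark, and the filter favoured a higher liver. The arrays of these contrasts are separate between the genotypes. The median over the 10 genes was 11.06 in controls and 11.58 in TG mice, against 0.14 and 0.36 over all features. RNA was drawn from the organs with different kits, so an effect of organ and one of extraction cannot be told apart, and in whole tissue fewer cells of a type and less RNA per cell cannot be told apart either.

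Tissue factor F3 (NM_010171), the receptor for factor VII and the start of the cascade, was at 2.91, 2.80 and 3.11 in esophagi TG1, TG2 and TG3 and at 2.77, 3.26 and 3.02 in esophagi CTR1, CTR2 and CTR3. In liver the TG arrays gave -1.30, -1.41 and -0.75 and the CTR arrays -0.67, -1.12 and -1.46. All 12 values were above background, the organs did not overlap, and the genotypes overlapped within each organ. F3 was 17.1-fold higher in esophagus among controls (log2 difference liver minus esophagus -4.10, SE 0.25, limma adjusted p = 1.92e-07) and 17.1-fold higher among TG mice (-4.10, SE 0.25, adjusted p = 2.01e-07). Its second probe gave 2.46 to 2.97 in esophagus and -1.80 to -1.23 in liver. Within the slides that held both organs of a genotype the difference was -3.69 and -3.88 in controls and -4.22 and -4.52 in TG mice. Over the 12 arrays the named genes with the centred profile nearest to F3 were Limk2, Spats2l, Adam15, Cox7a1 and Ablim1, with root mean square differences of 0.18 to 0.26 among 14293 genes compared. Both organs enter that profile, so a like gap between the organs weighs most.

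F7 (NM_010172), the protease that binds tissue factor, was at 3.00, 3.03 and 2.79 in livers TG1 to TG3 and at 3.51, 3.35 and 3.80 in livers CTR1 to CTR3. All 3 TG livers lay below all 3 CTR livers. In esophagus F7 was at -3.75, -3.36 and -3.32 in TG and at -3.33, -3.68 and -4.20 in CTR, above background on all 6 and overlapping between genotypes. Liver was 156-fold higher among controls (log2 7.29, SE 0.23, limma adjusted p = 1.75e-09) and 85.3-fold higher among TG mice (6.41, SE 0.24, adjusted p = 4.56e-09).

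F10 (NM_007972) makes the protease that cleaves prothrombin. It was the steadiest member in liver, at 7.31, 7.41 and 7.26 in TG and 7.16, 7.28 and 7.24 in CTR. Its SD over the 6 livers was 0.083, and 0.819% of all features tested in liver had a smaller one. In esophagus it was at -4.80, -2.99 and -3.88 in TG and -2.70, -3.62 and -3.42 in CTR. The genotypes overlapped in both organs, and liver was 1421-fold higher among controls (log2 10.47, SE 0.39, limma adjusted p = 4.95e-09).

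F9 (NM_007979), the gene of the protease lacking in haemophilia B, has 2 probes that disagree on the esophagus. The brighter probe was at 2.65, 2.77 and 2.84 in TG and 2.93, 3.04 and 3.11 in CTR livers, and at -0.33, -0.68 and -0.15 in TG and -0.20, -0.35 and 0.12 in CTR esophagi. On it all 3 TG livers were below all 3 CTR livers, by a small step, and the esophagi overlapped. The second probe was at 1.09, 0.67 and 0.80 in TG and 1.06, 1.38 and 1.32 in CTR livers, where the genotypes overlapped, and was not above background in any of the 6 esophagi. Liver was 8.98-fold higher among controls by the brighter probe (log2 3.17, SE 0.18, limma adjusted p = 1.31e-07) and at least 161-fold higher by the second (log2 7.33). Such a lower bound sets the liver mean against the lowest signal counted as above background on each esophagus array, or the probe's own signal where that is higher. Its size depends on that limit: with a common floor of -3.97, the highest of these limits over the 12 arrays, the second probe's difference was 5.22. Averaging both probes gave a log2 difference of 5.91, so the size of the F9 difference depends on the probe.

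F5 (NM_007976), the cofactor of the prothrombin-cleaving complex, was at 3.44, 2.98 and 2.92 in TG and 3.25, 3.33 and 3.43 in CTR livers. The esophagi gave -7.04, -5.56 and -5.23 in TG and -3.60, -6.07 and -4.65 in CTR, of which TG3, CTR1 and CTR3 were above background. Liver was higher among controls by 8.11 on the log2 scale (SE 0.59, limma adjusted p = 7.58e-07). That value includes esophagus CTR2, which was not above background, so no fold is given; the common floor gave 7.18 and normexp background correction 5.75. The genotypes overlapped in both organs.

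F2 (NM_010168), the prothrombin gene, was at 9.07, 9.34 and 9.20 in TG and 8.82, 9.31 and 9.20 in CTR livers. In esophagus it was at -4.39, -4.32 and -4.65 in TG and at -3.49, -3.00 and -3.08 in CTR, above background on all 6. The livers overlapped between genotypes, and all 3 TG esophagi lay below all 3 CTR esophagi. Liver was 5053-fold higher among controls (log2 12.30, SE 0.19, limma adjusted p = 2.18e-11).

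The fibrinogen chains Fga (NM_010196), Fgb (NM_181849) and Fgg (NM_133862) form the protein that thrombin turns into fibrin. Fga was at 5.83, 7.41 and 5.67 in TG and 7.42, 5.87 and 5.97 in CTR livers and was not above background in any esophagus (-7.67 to -5.84). Fgb was at 9.53, 10.08 and 9.37 in TG and 9.86, 9.16 and 9.31 in CTR livers, and at -3.23, -4.28 and -5.37 in TG and -4.21, -2.65 and -2.81 in CTR esophagi. Fgg was at 9.06, 9.79 and 9.34 in TG and 9.49, 9.08 and 9.09 in CTR livers, and at -4.26, -4.84 and -5.26 in TG and -4.78, -3.74 and -3.96 in CTR esophagi. For each chain the genotypes overlapped in both organs, and the highest liver of each genotype was TG2 and CTR1. Liver was at least 5321-fold higher for Fga among controls by the limits of single arrays (log2 12.38), with 10.39 under the common floor and 9.21 under normexp. It was 6478-fold higher for Fgb (log2 12.66, SE 0.54, limma adjusted p = 1.36e-08) and 10664-fold higher for Fgg (13.38, SE 0.33, adjusted p = 2.64e-10). The profile nearest to the mean of the 3 chains was that of C8a, a complement chain, followed by Apoa1, Baat, Serpinc1 and Ces3b (root mean square difference 0.41 to 0.48 over 12 arrays). Here too a like gap between the organs weighs most, and the order of the livers need not be shared. Serpinc1 was lowest in liver CTR1, at 8.58.

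Plg (NM_008877), the plasminogen gene, was at 5.90, 5.68 and 5.74 in TG and 6.0, 5.86 and 6.19 in CTR livers. In esophagus TG1 was at -4.28, CTR2 at -5.41 and CTR3 at -4.91, and the other 3 arrays were not above background. Liver was higher among controls by 11.65 on the log2 scale (SE 0.68, limma adjusted p = 1.49e-07). That value and its p include esophagus CTR1, which was not above background, and the common floor gave 9.98. The second Plg probe was not above background in any TG esophagus, and liver was at least 3131-fold higher on it among TG mice by the limits of single arrays (log2 11.61), with 9.60 under the common floor.

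Among TG mice, whose arrays are separate from those of controls, liver was 12909-fold higher for F2, 2376-fold for F10, 8.82-fold for F9 by its brighter probe, 15859-fold for Fgb and 18635-fold for Fgg. F5 and Plg were each above background on 1 of 3 TG esophagi. The log2 difference was 9.06 for F5 and 11.95 for Plg as measured, and 7.08 and 9.74 with the common floor. For Fga it was at least 12.29 by the limits of single arrays and 10.27 with the common floor. The limma adjusted p of F2, F9, F10, Fgb and Fgg ran from 1.10e-11 to 1.50e-07. For F5, Fga and Plg no p is given here, since they entered the test through liver alone. The folds of these liver genes rest on esophagus signals near background. With normexp background correction and quantile normalization together, the control differences were 11.02 for F2, 5.75 for F5, 5.80 for F7, 2.75 for F9 and 9.13 for F10. They were 9.21 for Fga, 11.24 for Fgb, 11.41 for Fgg and 8.83 for Plg, and all 10 members kept their calls.

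The wider clotting system had calls in both directions between the organs. So did all features, of which 34.6% were called higher and 27.8% lower in control liver. Of 14 other procoagulant and contact genes, 12 were called higher in control liver (median 7.61 over the list), led by F12 at 11.88 (SE 0.23) and F13b, the carrier chain of the fibrin-linking enzyme, at 11.15 (SE 0.35). F13a1, the catalytic chain of the fibrin-linking enzyme made by macrophages and platelets, at -8.03, and Vwf, the platelet tether of endothelium, at -1.92, were called lower. Of 14 anticoagulant genes 10 were called higher in liver, such as antithrombin Serpinc1 at 13.14 (SE 0.26) and Serpind1, heparin cofactor II, at 10.65 (SE 0.21). The 2 called lower were the cell-surface receptors Procr at -4.29 and Thbd at -4.25, which serve the activation of protein C. Like F13a1 and Vwf, Procr and Thbd were named after their values were seen. Of 12 fibrinolysis genes 4 were called higher in liver, among them the plasmin inhibitor Serpinf2 at 10.46 (SE 0.31), and 8 lower, among them the plasminogen activator Plat at -4.19 (SE 0.19). The 4 called higher are near the share of all features. Of 5 vitamin K cycle genes, which serve the maturation of factors II, VII, IX and X, Vkorc1 was called higher at 3.71 (SE 0.17) and Ggcx at 2.66 (SE 0.17), with 4 called higher in all, and Nqo1 was called lower at -3.44 (SE 0.41). Of 13 hepatocyte regulators 10 were called higher in liver and 0 lower, with Nr1h4, the bile acid receptor, at 8.59 (SE 0.21) and Nr5a2, a nuclear receptor, at 6.78 (SE 0.44). Of the thrombin receptors 1 of 2 tested, F2r, was called higher at 1.04 (SE 0.41).

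**Figure D2:**
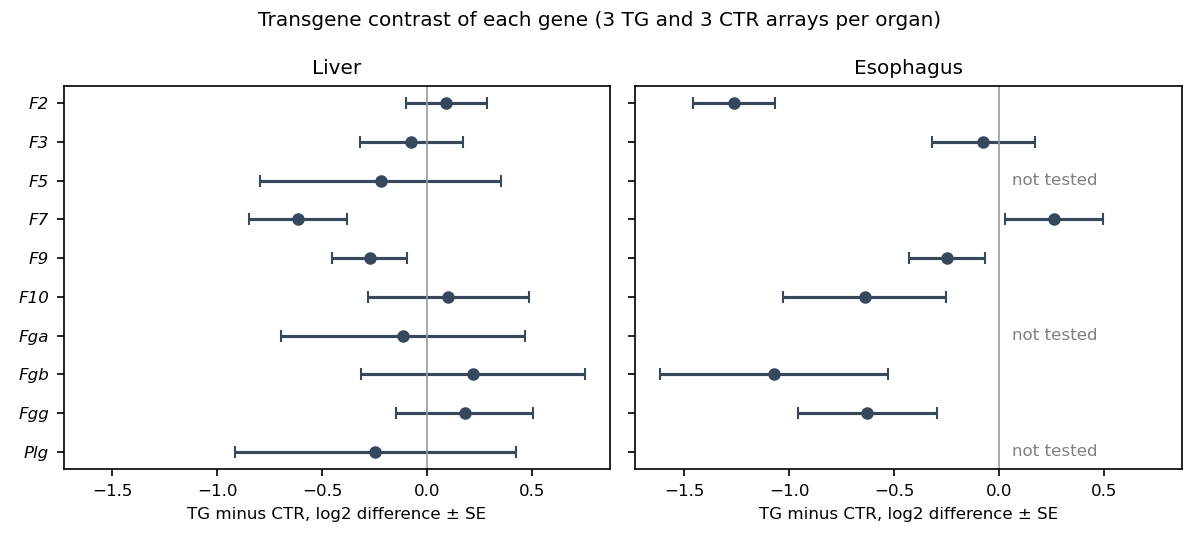
TG minus CTR log2 difference (horizontal axis) of each gene in liver (left) and esophagus (right), as the limma estimate with its SE from 3 TG and 3 CTR arrays per organ. F7 at -0.61 lies lowest in liver and F2 at -1.26 lowest in esophagus; F5, Fga and Plg were not tested in esophagus.

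In liver no member differed between TG and CTR past the threshold. Of 10 members tested 0 were called, as were 0% of 21247 features (limma, adjusted p below 0.05), and 1 member had an unadjusted p below 0.05, against 1770 of all features. That member was F7, at -0.61 (SE 0.23, limma unadjusted p = 0.0231, adjusted p = 0.589). A fixed block for the slide gave -0.72 and normexp -0.44. F9 was at -0.27 (SE 0.18) by its brighter probe. These were the 2 of 10 members whose TG arrays all lay below the CTR arrays, which held for 2.88% of features, while 0 members had all TG arrays above, against 8.44%. On slide 2, which held liver TG3 and liver CTR2, F7 was at -0.56 and F9 at -0.20. The members ran from -0.61 to 0.22, with a median of -0.095 against 0.13 over all features, and Fgb (0.22, SE 0.53), Fgg (0.18, SE 0.33), F10 (0.10, SE 0.38) and F2 (0.091, SE 0.19) were above 0. The signs of F2, F3, F5, Fga and Fgg turned under other settings.

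The genes that serve the factors gave 0 calls in liver in each list. Ggcx, the carboxylase that vitamin K drives, was at 1.00, 0.62 and 0.44 in TG and 1.29, 1.37 and 1.45 in CTR livers. Its TG arrays all lay below the CTR arrays, with a difference of -0.68 (SE 0.17, limma adjusted p = 0.574). Habp2, a plasma protease that can activate factor VII, was at -1.51, -1.41 and -1.79 in TG and -1.02, -0.42 and 0.53 in CTR livers. Those arrays did not overlap either (-1.26, SE 0.33, limma adjusted p = 0.574). Among regulators, Cebpa was at -0.55 (SE 0.24), and its arrays overlapped, with liver TG1 at 4.26 above liver CTR1 at 3.97. The median difference was -0.19 for 13 other procoagulant genes, 0.076 for 13 anticoagulant genes, -0.039 for 9 fibrinolysis genes and 0.053 for 13 regulators, with 3, 9, 4 and 7 above 0.

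Of the fibrinogen chains, Fga varied most among livers of the same genotype. Fga spanned 3.35-fold over the 6 livers, Fgb 1.90-fold and Fgg 1.66-fold, against a median of 1.87-fold over all features. The mean of the 3 chains was 8.14, 9.09 and 8.13 in livers TG1 to TG3 and 8.92, 8.03 and 8.12 in livers CTR1 to CTR3. The SD of Fga was 0.82, and 89.3% of features had a smaller one. For Fgb that share was 52% and for Fgg 40.7%, so these 2 chains were near the middle of all features. TG2 and CTR1 were the 2 highest livers for all 3 chains, 3 of the 10 members, which held for 11.6% of all features tested in liver. They were the 2 lowest for 0 members, against 11.8% of features. Outside the 3 chains the members did not order the livers in this way.

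The same 2 livers were highest for 17 of 20 acute phase genes. Saa1, serum amyloid A, was at 4.71, 10.23 and 4.22 in TG and 9.76, 3.94 and 7.58 in CTR livers, and Lcn2 at -4.27, 3.94 and -4.60 in TG and 4.31, -3.60 and -3.19 in CTR livers. Fgl1, a fibrinogen-related acute phase gene, was at 3.70, 7.61 and 4.54 in TG and 6.95, 4.68 and 6.07 in CTR livers. In each case TG2 and CTR1 were high, and for Saa1 and Fgl1 liver CTR3 came next; these 3 genes were named after their values were seen. The pair was also highest for 6 of 9 fibrinolysis genes (Anxa2, Cpb2, Hrg, Plaur, S100a10 and Serpinf2) and 3 of 13 anticoagulant genes, and lowest for 5 of 13 other procoagulant genes, 2 of 5 vitamin K cycle genes and 4 of 16 hepatocyte markers. It was lowest for 3 of 4 red blood cell markers, whose summed linear signal was 74.7 in TG2 and 113 in CTR1 against 144 to 186 in the other 4 livers, and highest for 2 of 7 macrophage and 2 of 8 platelet markers. Of the 20 acute phase genes 0 were called and 2 had a higher mean in TG livers, with a median difference of -0.36 against 0.13 over all features. Without livers TG2 and CTR1 these were 1 gene and -0.61. These genes vary together from liver to liver, so they are not separate evidence on genotype. Among the livers left, their summed linear signal was 1965 in CTR3, 1072 in CTR2, 990 in TG1 and 1074 in TG3, so CTR2 was near the TG livers. Without livers TG2 and CTR1 the TG minus CTR difference was -0.17 for Fga, 0.22 for Fgb and 0.12 for Fgg, and 0 members were called. The part of the acute phase genes and of blood content in the fibrinogen values was not tested.

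**Figure D3:**
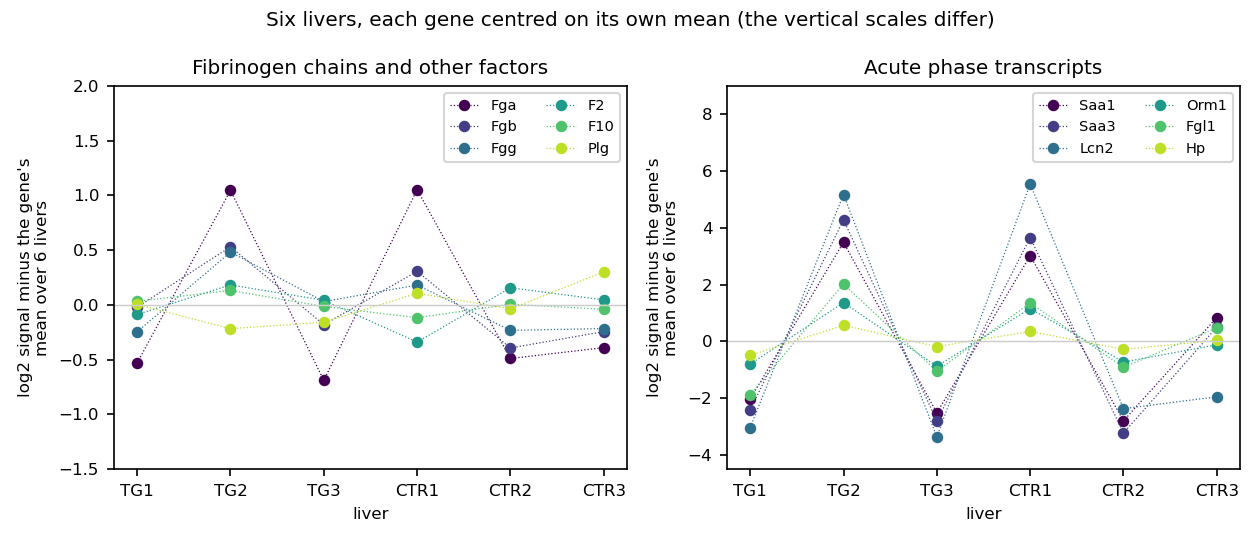
Log2 signal of each gene minus its own mean over the 6 livers (vertical axis), for members on the left and acute phase transcripts on the right; 1 point per liver, no error bars, and the vertical scales differ. Fga, Fgb and Fgg are highest in livers TG2 and CTR1, as are Saa1, Saa3, Lcn2, Orm1, Fgl1 and Hp, while F10 stays within 0.25 over the 6 livers.

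In esophagus 7 members could be tested and 0 were called, as were 0% of 23208 features (limma, adjusted p below 0.05). F5, Fga and Plg were not above background on all 3 arrays of either genotype. F2 alone had an unadjusted p below 0.05, as did 924 of all features. F2 was 2.40-fold lower in TG esophagus (-1.26, SE 0.19, limma adjusted p = 0.289), with 3 of 3 TG arrays below the lowest CTR array. An exact two-sided permutation test over the 20 splits gave p = 0.1, the smallest possible. Any gene without overlap gets that value, so the test only restates the separation. F2 was the 1 member of 7 with all TG arrays below the CTR arrays, against 6.13% of features, and 0 had all TG arrays above, against 6.34%. After dim values were raised to a common floor the F2 difference was -0.77, and with normexp it was -0.56. That floor is the limit of liver CTR3, above the esophagus limits of -6.22 to -5.75. It replaced all 3 TG values of F2, which were above background. Within slide 3, which held esophagi TG1 and CTR2, the F2 difference was -1.39. Without esophagi TG1 and CTR1 it was -1.44 (limma adjusted p = 0.724). Of the 7 members, 6 had a lower mean in TG, with a median of -0.63 against -0.0034 over all features. Fgb was at -1.07 (SE 0.54), with -0.58 under the common floor, -0.41 under normexp and -2.10 without esophagi TG1 and CTR1. Fgg was at -0.63 (SE 0.33), with -0.077, -0.16 and -1.20 in the same order. F10 was at -0.64 (SE 0.39), with -0.36, -0.27 and 0.086. The size of these differences thus depends on the setting. F9 was at -0.25 (SE 0.18), F3 at -0.074 (SE 0.25) and F7 at 0.26 (SE 0.23).

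Other liver-made transcripts were at low levels in the same esophagi. Albumin, Alb, was at -4.58, -5.54 and -4.83 in TG and -3.26, -1.22 and -1.32 in CTR esophagi, with TG2 not above background and no overlap between genotypes (-3.05, SE 0.47, limma adjusted p = 0.289). With the common floor it was at -2.03 (adjusted p = 0.383) and with normexp at -1.43 (adjusted p = 0.23). Without esophagus CTR1 it was at -3.71 and called (adjusted p = 0.00386), and without esophagi TG1 and CTR1 at -3.91 and called (adjusted p = 0.00712). Serpind1 was at -4.72, -4.62 and -4.85 in TG and -3.58, -4.01 and -3.27 in CTR esophagi, again without overlap (-1.11, SE 0.21, limma adjusted p = 0.532), and its difference was -0.36 with the common floor and -0.40 with normexp. Apoh, a plasma protein that binds phospholipid, was at -1.28 (SE 0.26) and was not above background in esophagi TG1 and TG2. The common floor gave -0.11 and normexp -0.34. Serpinc1 was at -0.80 (SE 0.26), with -0.18 under normexp and -0.44 (SE 0.20) as the mean of its probes. Under the common floor Serpinc1 was at 0, because all 6 of its esophagus values lie below that floor. The floor also replaced every TG value of Serpind1 and Apoh. By the brightest probe of each, neither Apoh nor Serpinc1 overlapped between genotypes, though for Serpinc1 TG2 at -5.10 lay just below CTR1 at -5.08. Over the whole hepatocyte list 12 of 16 markers were above background on each TG esophagus and 14 of 16 on each CTR esophagus. Their summed linear signal was 2.82 to 5.81 times the 75th percentile in TG and 5.44 to 9.76 in CTR, against 4687 to 6159 in liver. Of the 14 hepatocyte markers tested, 0 were called and 1 was above 0, with a median of -0.47. Red blood cell markers summed to 44.4 to 65.8 in TG and 89.7 to 149 in CTR esophagi, with 4 of 4 above background on all 6 arrays. The part of liver or blood transcripts in the F2, Fgb and Fgg values was not tested.

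**Figure D4:**
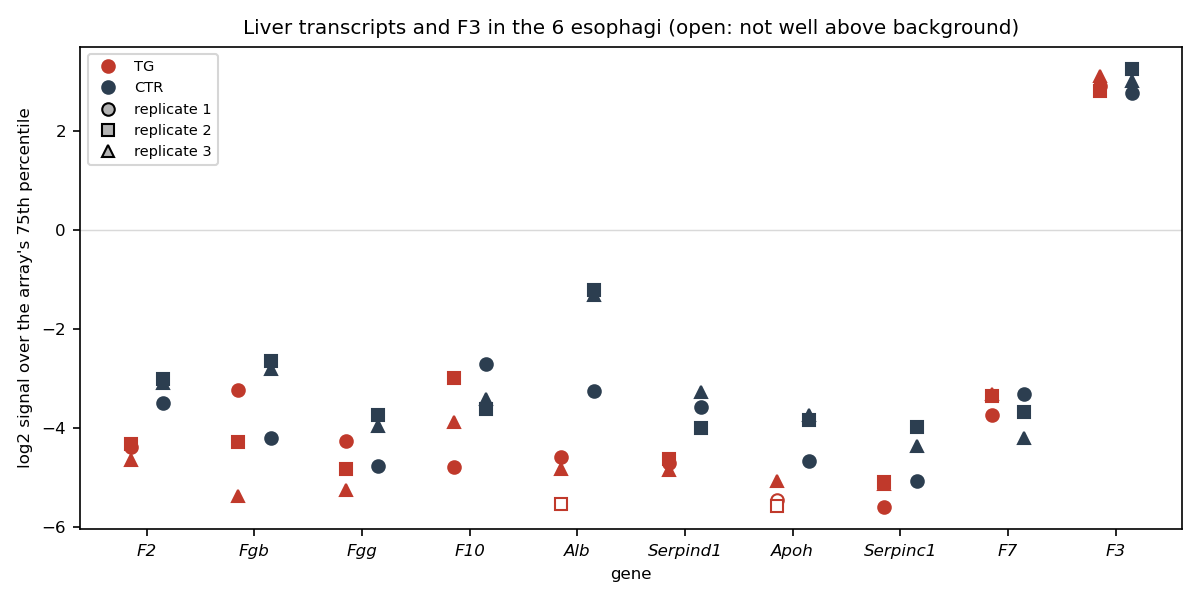
Log2 signal relative to the array's 75th percentile (vertical axis) of 5 liver-expressed members, F3 and 4 other liver-made transcripts in the 6 esophagi; 1 point per array, TG red and CTR dark, with the symbol giving the replicate and open points not well above background. F2, Alb, Serpind1, Apoh and, narrowly, Serpinc1 do not overlap between genotypes, Fgb, Fgg, F10 and F7 do, and F3 lies between 2.77 and 3.26.

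In the other clotting lists 0 genes were called in esophagus. Kng1, a kininogen, was at -1.37 (SE 0.60) and was not above background in esophagus TG1. Without that array it was at -0.53, with normexp at -0.54, with the common floor at -0.96 and as the mean of its probes at -0.57. Hp, the haemoglobin-binding haptoglobin of the acute phase list, was at -2.44 (SE 0.75), with esophagus TG2 at 2.96 above CTR2 at 2.83, and S100a10, part of a plasminogen receptor, was at 0.64 (SE 0.39). The median was -0.23 for 9 other procoagulant genes, -0.21 for 9 anticoagulant genes, -0.092 for 12 fibrinolysis genes and -0.073 for 5 vitamin K cycle genes.

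The difference between the organs' transgene contrasts was also tested. For the liver difference minus the esophagus difference, 0 of 10 members were called, as were 0% of 24438 features (limma), and 2 members had an unadjusted p below 0.05, against 1216 of all features. These were F2 at 1.35 (SE 0.28) and F7 at -0.88 (SE 0.33), both with adjusted p = 0.943. With the common floor they were 0.87 and -0.80, and with normexp 0.44 and -0.56. For F2 the liver difference was 0.091 and the esophagus difference -1.26, and for F7 they were -0.61 and 0.26. F3 was at -0.00073 (SE 0.35), its differences in liver and esophagus being -0.075 and -0.074.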

How the data were processed

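Total RNA of 12 samples (1 µg, integrity numbers 7.3 to 9.5, per the labels' protocols) was hybridised to Agilent 4x44K mouse arrays, design 14868. The deposited scanner files give linear spot intensity and were made, per the file headers, by Agilent Feature Extraction 10.7.1.1, background-subtracted within each array. A second file deposited by the authors holds log2 values, quantile-normalized by its values (column medians of 7.27), with 0 columns lacking a sample; per the submitters' processing notes limma was used (version not given in the sources used here), and its background treatment is likewise not given.

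Control spots and 1311 outlier spots were left out, no spot was saturated, and 23374 probes were named through RefSeq accessions in a gene table of GRCm38.p6. The array design is annotated on mm8, so no gene coordinates are given. The log2 signal minus each array's 75th percentile (8.88 to 10.07) was fitted over 12 arrays in 4 groups with limma 3.58.1 in R 4.3.3 (lmFit, eBayes, 8 residual degrees of freedom, no block). The SE of a contrast within an organ therefore pools the spread of liver and esophagus arrays. To be tested, a feature had to be above background in all 3 arrays of 1 or more groups compared; tests were two-sided with adjusted p below 0.05. The contrasts within an organ, between organs and their difference share arrays, except that control and TG organ contrasts share none. Samples of a genotype are 3 separate mice.

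The members and lists were chosen with earlier results of these data known. The 10 members are named always; per list up to 4 genes with the smallest p in a transgene or control organ contrast may be named, and others are marked. Marker lists for muscle, fibroblast, endothelium, macrophage, platelet and bile duct cells gave 0 calls in either transgene contrast, and in the control organ contrast 10 of 10 skeletal muscle, 6 of 6 smooth muscle and 7 of 7 fibroblast markers were lower in liver. Calls higher and lower in liver were 3 and 3 of 8 for endothelium, 2 and 1 of 7 for macrophage, 1 and 2 of 8 for platelet, 1 and 1 of 4 for red blood cell and 1 and 2 of 6 for bile duct. Over all features the shares in this contrast were 34.6% higher and 27.8% lower. Acute phase genes gave 0 calls between genotypes and 15 higher and 1 lower of 20 in control liver. Because the files lack a mean signal column, normexp (offset 50) used the median signal, and its values were then quantile-normalized. Alternatives changed normalization, background, filter, floor, probe choice, blocks, weights, moderation and samples. The procedure was tested on simulated data. Some planned items are not reported here. Same-numbered TG and CTR samples share only a number (correlations of deviations -0.151 to 0.0901), and organs of one animal gave -0.0635 to 0.162. Software also included matplotlib 3.10.9, pandas 2.3.3 and Python 3.11.15 for plots, and the R packages jsonlite 2.0.0 and data.table (version 1.17.8).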

Additional observations from a re-analysis of the deposited data

How the results depend on the processing

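Over 30 settings, 18 of them besides leaving out single arrays, every count of members called was within 1.5 times its reported value: 0 in the 2 transgene contrasts and in their difference under each setting, and 10 in the 2 organ contrasts except 7 of 7 tested where a probe had to be above background on every array of both groups. With the replicate block, by number or by animal, 0 members were called in the transgene contrasts and 10 in the organ contrasts, so the pairing changed no call. Of 1488 values of single genes, 1462 kept their direction and call. That count says little about how firm the differences are, because many could not turn sign. Leaving out an esophagus array cannot move a liver difference. Filter and moderation settings leave every difference as it was, and the organ differences were large. Another 24 turned sign, a count that includes Serpinc1 in esophagus, which was set to 0 by the common floor. The other 2 passed the threshold, both for Alb in esophagus (-3.71 without esophagus CTR1 and -3.91 without esophagi TG1 and CTR1).

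In liver F2 was at -0.039 with quantile normalization, -0.11 with normexp, -0.12 with the authors' table and -0.12 without livers TG2 and CTR1, and F3 at 0.10, 0.10 and 0.26 under the last 3 of these. Fgg was at -0.017 with the authors' table, F5 at 0.10 with the slide as a fixed block, and Fga at 0.43 with array weights. In esophagus F3 was at 0.011 with normexp, 0.0099 with the authors' table and 0.19 with the slide as a fixed block, F7 at -0.010 with that block, Serpinc1 at 0 with the common floor of -3.97, and F10 at 0.086 without esophagi TG1 and CTR1. Leaving out 1 array at a time, the liver difference ran from -0.056 to 0.19 for F2, -0.28 to 0.13 for F3, -0.67 to 0.38 for Fga and -0.018 to 0.35 for Fgg, and the esophagus difference of F3 from -0.20 to 0.047 and of Alb from -3.71 to -2.69. Fgb in esophagus ran from -1.61 to -0.53. The cause of these changes was not tested beyond what each setting alters.

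Without livers TG2 and CTR1, chosen after their acute phase values were seen, 4 features and 0 members were called in liver; the setting without 2 esophagi was likewise chosen after seeing the data. Quantile normalization moved the median of all features in liver from 0.13 to 0.022. Signals of the liver genes in esophagus lie near background, which limits their differences there.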
